A study of Arabidopsis thaliana with 6 samples.

Results

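The genes described here are 2 autoinhibited calcium pumps, ACA12 (locus AT3G63380, probe set 251176_at) and ACA13 (locus AT3G22910, probe set 256833_at), and 2 genes for membrane subunits of the vacuolar proton pump, VHA-A2 (locus AT2G21410, probe set 263764_at) and VHA-A3 (locus AT4G39080, probe set 252932_at). They are 4 of the 22746 probe sets tested. They were chosen by name and with their mutant and wild-type levels on these arrays already known, so those levels are given as a description and without a test. The platform annotation used here named 2 of the 4, VHA-A2 and VHA-A3. The names of the other two probe sets came with the selection rule, and the RefSeq gene table lists ACA12 and ACA13 as synonyms of those loci.

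Total RNA of whole Arabidopsis thaliana plants was measured on Affymetrix arrays, with 3 arrays for wild-type plants and 3 for plants of the double mutant cax1cax3, both in the Columbia-0 ecotype. All plants were 40 days old by the labels, which name no treatment, and were kept first on sucrose medium for 10 days and then in soil for 3 weeks, by which time the mutant had begun to form necrotic lesions. The times on medium and in soil add up to less than the stated age. The mutant alleles and the number of plants behind each sample are not stated in what was used here. Arrays carry the numbers 1 to 3 within a genotype, and the labels do not say whether different numbers mean separately grown plants.

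CAX1 and CAX3 are exchangers of the vacuolar membrane that load calcium into the vacuole in return for protons. The protons come from the vacuolar proton pumps, the V-ATPase and a pyrophosphatase, so the exchangers work only while these pumps keep the vacuole acidic. The V-ATPase has a cytosolic sector that splits ATP and a membrane sector that carries protons, and subunit a forms part of the proton path. In Arabidopsis, subunit a has 3 isoforms: VHA-a1 sits in the trans-Golgi network, and VHA-a2 and VHA-a3 sit in the vacuolar membrane, where plants without both lack V-ATPase activity. The array symbols VHA-A2 and VHA-A3 stand for these vacuolar isoforms and not for the catalytic subunit A. Autoinhibited calcium pumps use ATP to remove calcium from the cytosol, and most are held inactive by an N-terminal stretch until calmodulin with bound calcium releases it. ACA12 and ACA13 belong to the plasma membrane branch of that family, and ACA13 is known for calcium export from stigma papilla cells at pollination. Earlier biochemical work on cax1 plants found less V-ATPase activity and more calcium pump activity at the vacuolar membrane. The comparison asks whether genes for calcium export and for vacuolar energy supply differ in level when both exchangers are lost.

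Both calcium pump genes were several-fold higher in the mutant. Both vacuolar subunit a genes were slightly lower on average, and for VHA-A3 the arrays of the genotypes overlapped. All values are log2 levels as deposited, and a positive difference means a higher level in the mutant.

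ACA12 had log2 levels of 5.43, 5.17 and 5.29 on the wild-type arrays 1, 2 and 3 and of 8.25, 8.72 and 8.13 on the mutant arrays 1, 2 and 3. The groups did not overlap, and the lowest mutant array lay 2.71 log2 units above the highest wild-type array. The mean level was 5.30 ± 0.13 in the wild type and 8.37 ± 0.31 in the mutant (log2, SD, n = 3), a difference of 3.07 ± 0.19 (SE) or 8.41-fold. The wild-type level was low: its lowest array lay 0.48 log2 units above 4.70, the 95th percentile of 27 probe sets for Bacillus transcripts, which serve here as a measure of background. A fold against a level so near background can understate the change.

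ACA13 had log2 levels of 6.14, 5.98 and 6.08 on the wild-type arrays 1, 2 and 3 and of 8.35, 9.25 and 8.87 on the mutant arrays. Again every mutant array lay above every wild-type array, here by at least 2.21 log2 units. The mean level went from 6.07 ± 0.08 to 8.83 ± 0.45 (log2, SD, n = 3), a difference of 2.76 ± 0.27 (SE) or 6.77-fold. Its wild-type arrays were at least 1.28 log2 units above the Bacillus percentile.

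**Figure D1:**
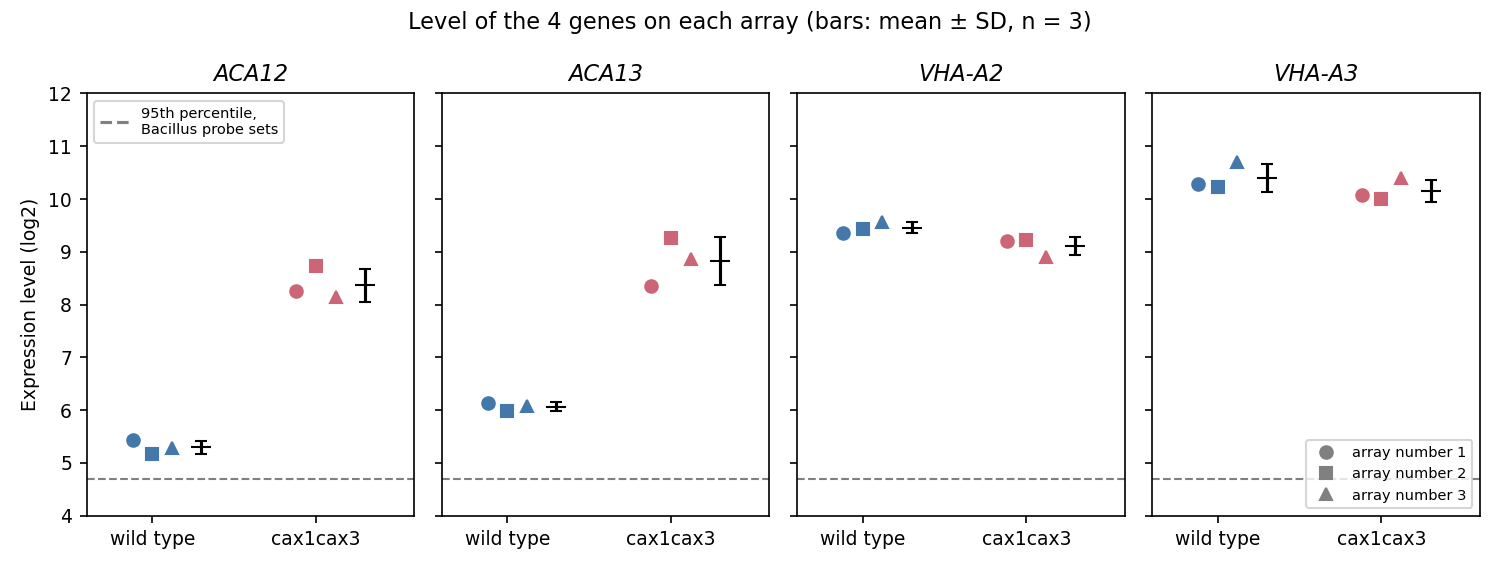
Log2 expression level (y axis) of the 4 genes on each wild-type (blue) and cax1cax3 (red) array. Symbols mark the array number of the labels, black bars the mean ± SD of 3 arrays, and the dashed line the 95th percentile of the Bacillus probe sets (4.70). The 3 mutant arrays stand apart from the wild type for ACA12 and ACA13, lie just below it for VHA-A2 and overlap it for VHA-A3.

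The 2 pump genes varied more among the mutant arrays than among the wild-type arrays. The wild-type arrays spanned 0.25 log2 units for ACA12 and 0.16 for ACA13, and the mutant arrays spanned 0.59 and 0.91. For both genes the highest mutant array was number 2. The lowest was number 3 for ACA12 and number 1 for ACA13. The SD of ACA13 among mutant arrays was larger than that of 91.8% of all probe sets, and its SD among wild-type arrays was larger than that of 26.2%. For ACA12 these shares were 80.7% and 47.5%. The probe sets compared were of all levels and were not matched to those of the pump genes.

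Across all probe sets, same-numbered arrays of the 2 genotypes shared deviations from their group means (correlations of 0.43, 0.29 and 0.47 for numbers 1, 2 and 3), so differences were also taken within each number. For ACA12 they were 2.82, 3.55 and 2.85 log2 units in numbers 1, 2 and 3. For ACA13 they were 2.21, 3.28 and 2.79. The change of ACA12 was larger than that of ACA13 in each number, by 0.61, 0.28 and 0.05 log2 units, a gap of between 0.05 and 0.61 beside changes of over 2 log2 units. Across the 22746 probe sets, 19 had a larger positive difference than ACA12 and 32 had a larger one than ACA13. Since the values of this contrast were known when the genes were chosen, these ranks describe the genes and support nothing further.

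**Figure D2:**
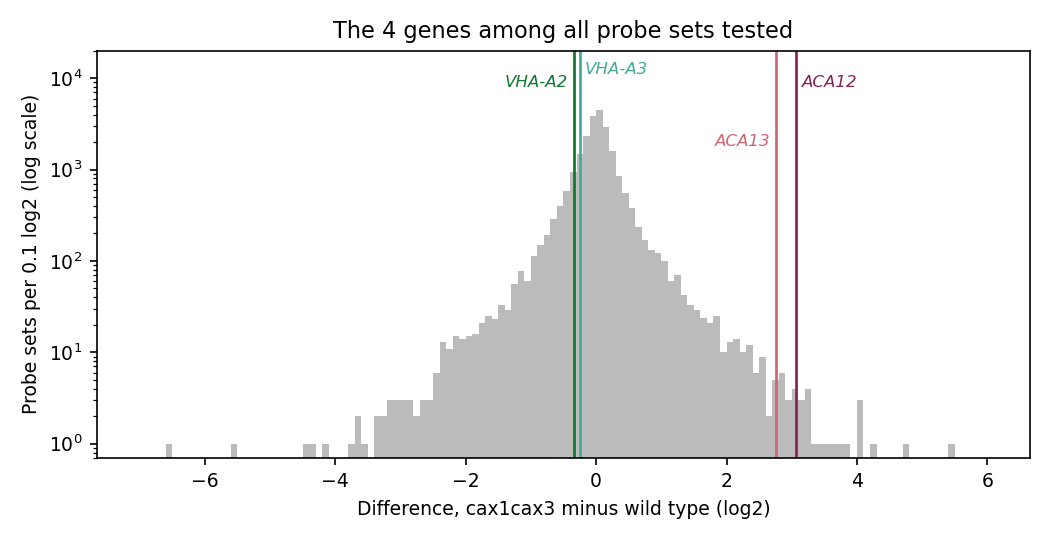
Number of probe sets (y axis, log scale) by the difference in mean log2 level between cax1cax3 and wild type (x axis, bins of 0.1 log2 units), with vertical lines at the 4 genes. ACA13 (2.76) and ACA12 (3.07) lie in the far right tail, and VHA-A2 (-0.34) and VHA-A3 (-0.25) lie in the left flank of the central peak.

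VHA-A2 had log2 levels of 9.36, 9.44 and 9.57 on the wild-type arrays 1, 2 and 3 and of 9.21, 9.22 and 8.90 on the mutant arrays. The groups did not overlap, but the highest mutant array was only 0.14 log2 units below the lowest wild-type array. The mean level was 9.45 ± 0.10 in the wild type and 9.11 ± 0.18 in the mutant (log2, SD, n = 3), a difference of -0.34 ± 0.12 (SE), which is 1.27-fold lower. The pair numbered 3 held most of this difference: the values within numbers 1, 2 and 3 were -0.15, -0.22 and -0.66 log2 units. Without both arrays numbered 3 the mean difference was -0.19. Among all probe sets, 77.2% had a smaller difference in either direction.

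VHA-A3 had log2 levels of 10.28, 10.22 and 10.71 on the wild-type arrays and of 10.07, 10.00 and 10.40 on the mutant arrays. The genotypes overlapped, since mutant array 3 was above wild-type arrays 1 and 2. The mean level was 10.40 ± 0.27 in the wild type and 10.15 ± 0.21 in the mutant (log2, SD, n = 3), and the difference of -0.25 ± 0.20 (SE) was within the spread of the arrays. In both genotypes array 3 was the highest, so the differences within numbers were closer together, at -0.21, -0.22 and -0.31. Leaving out wild-type array 3 alone brought the difference to -0.09, and leaving out mutant array 3 alone brought it to -0.37.

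Of the 4 genes, 2 had mutant arrays wholly above the wild type, as did 11.6% of all probe sets, and 1 had mutant arrays wholly below it, as did 13.0%. Both VHA genes were lower in the mutant within all 3 array numbers, as were 24.0% of all probe sets.

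The genes with the most alike pattern were found by the root-mean-square difference over the 6 arrays, after each probe set's wild-type mean was subtracted. The candidates were 6266 probe sets annotated with 1 gene in which at least one genotype had a mean over the array-wide median level. For ACA12 the nearest was AT1G15010, at 0.14 log2 units, followed by AT2G32190 at 0.26 and AT3G47480 at 0.28. These genes were over the median level of 7.06 only in the mutant. AT2G32190 and AT3G47480 had wild-type means of 4.77 and 6.55 log2 units, the first of them close to the Bacillus percentile of 4.70. AT1G15010 went from 5.82 ± 0.19 to 8.97 ± 0.18 (log2, SD, n = 3) and, like ACA12, was highest on mutant array 2 and lowest among the mutant arrays on number 3. The other two were highest on mutant array 3, where ACA12 was lowest.

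For ACA13 the nearest were AT3G18250 at 0.20 log2 units, the ubiquitin ligase gene RING1 at 0.26, and AT5G42830 at 0.26. Of these, AT5G42830 was over the median level only in the mutant, with a wild-type mean of 5.94 log2 units. AT3G18250 went from 7.39 ± 0.28 to 9.92 ± 0.49 (log2, SD, n = 3) with the same order of mutant arrays as ACA13. RING1 went from 10.02 ± 0.18 to 13.02 ± 0.36 and was highest on mutant array 3, where ACA13 lay between the other two. ACA12 and ACA13 lay 0.29 log2 units from each other by the same measure.

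The VHA genes had many near neighbours, because small differences are common. There were 834 candidates within 0.2 log2 units of VHA-A2 and 818 within that distance of VHA-A3, against 1 for ACA12 and 0 for ACA13. The nearest to VHA-A2 were AT4G32120, AT4G27640 and AT3G62790, at 0.04 to 0.05 log2 units, and all were lowest on mutant array 3. The nearest to VHA-A3 were AT2G03350, AT1G28680 and AT3G08890, at 0.06 log2 units, and all were highest on wild-type array 3. VHA-A2 and VHA-A3 lay 0.26 log2 units from each other, further than either lay from these neighbours, since VHA-A2 was lowest and VHA-A3 highest of the mutant arrays on number 3.

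**Figure D3:**
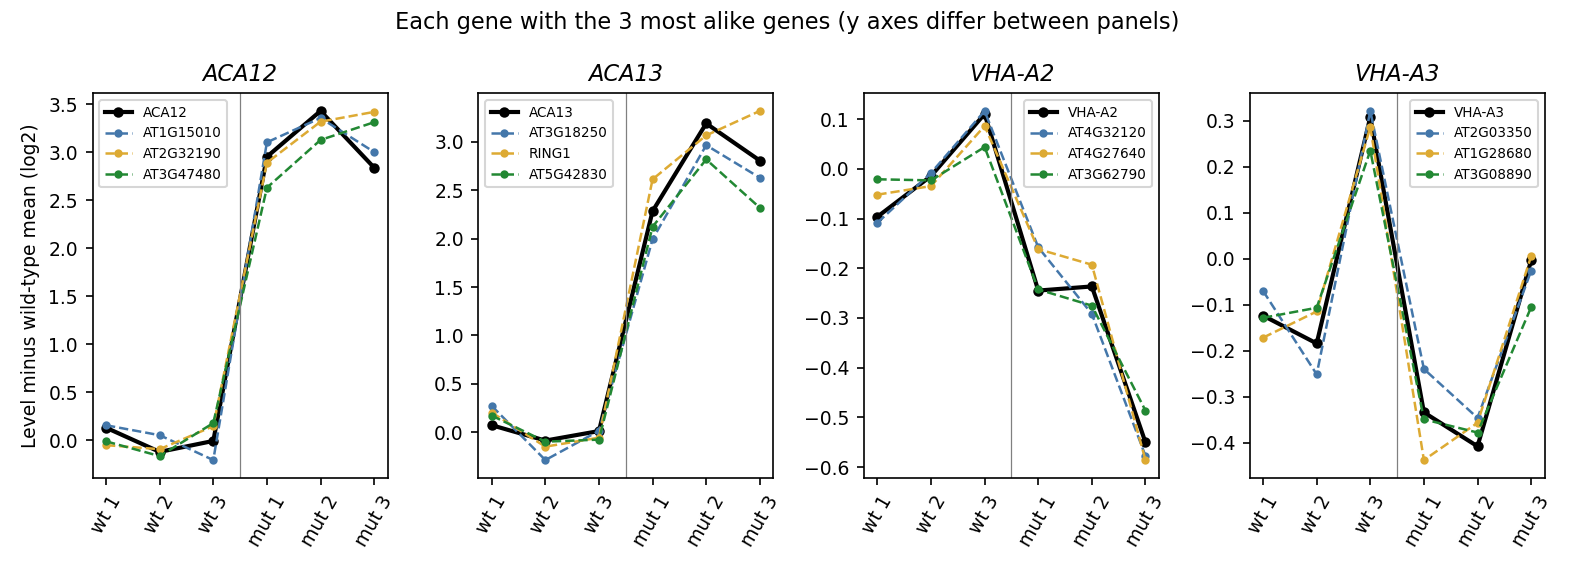
Log2 level minus the wild-type mean (y axis, a different range in each panel) on the wild-type (wt) and cax1cax3 (mut) arrays 1 to 3 for each of the 4 genes (black) and its 3 most alike genes (coloured). Lines only join the values of one gene. ACA12 and ACA13 and their neighbours step up on every mutant array, while VHA-A2 and VHA-A3 move by less than 1 log2 unit and differ from each other on mutant array 3.

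The other V-ATPase genes were taken from a list of 26 loci for subunits of either sector, of which the annotation named 7 with a probe set of their own. None of the 7 rose or fell by limma over all probe sets at an adjusted p under 0.05, a threshold that 2.34% of all probe sets passed as higher and 3.28% as lower. At an unadjusted p under 0.05 there was 1 of the 7, AT4G26710, beside 19.5% of all probe sets. Of the 7, 6 had negative differences, as did 10800 of all 22746 probe sets. Within all 3 array numbers 5 of the 7 were lower, beside 24.0% of all probe sets. The median difference was -0.19 log2 units, beside 0.01 over all probe sets.

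The third isoform of subunit a, VHA-A1 of the trans-Golgi network, had log2 levels of 7.61, 8.37 and 8.39 on the wild-type arrays and of 7.40, 8.00 and 8.05 on the mutant arrays. Array 1 was the lowest in both genotypes, and the groups overlapped. The difference was -0.31 ± 0.27 (limma log2 difference ± SE, adjusted p = 0.612), and within numbers 1, 2 and 3 it was -0.21, -0.37 and -0.34. With the array number as a block in the fit the adjusted p of VHA-A1 was 0.0994, the lowest of a range up to 0.909 over the alternatives.

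Of the cytosolic sector, VHA-D, a subunit of the central stalk, went from 11.62 ± 0.07 to 11.39 ± 0.13 (log2, SD, n = 3; adjusted p = 0.299). The mutant arrays of VHA-D lay below the wild-type arrays without overlap. VHA-F, another stalk subunit, went from 11.41 ± 0.22 to 11.31 ± 0.16 with overlapping arrays (adjusted p = 0.799). Across the whole list, which held both sectors, the only positive difference was that of AT3G42050, at 0.06 log2 units (adjusted p = 0.809). The largest in absolute size was that of AT4G26710, a gene of the membrane sector listed as VHA-e2. Its log2 levels were 11.56, 11.50 and 11.88 in the wild type and 11.37, 11.29 and 11.25 in the mutant. The difference of AT4G26710 was -0.35 ± 0.13 (SE, adjusted p = 0.193), and like that of VHA-A2 it was widest in number 3, at -0.64. AT4G32530 and AT5G55290, listed as VHA-C''1 and VHA-e1 and also of the membrane sector, had differences of -0.19 and -0.13.

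Another 4 probe sets were annotated to several V-ATPase genes at once and are therefore not named. Their differences ran from -0.43 to -0.13 log2 units, with adjusted p values of 0.114 to 0.629, and 3 of the 4 had mutant arrays wholly below the wild type, beside 13.0% of all probe sets.

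**Figure D4:**
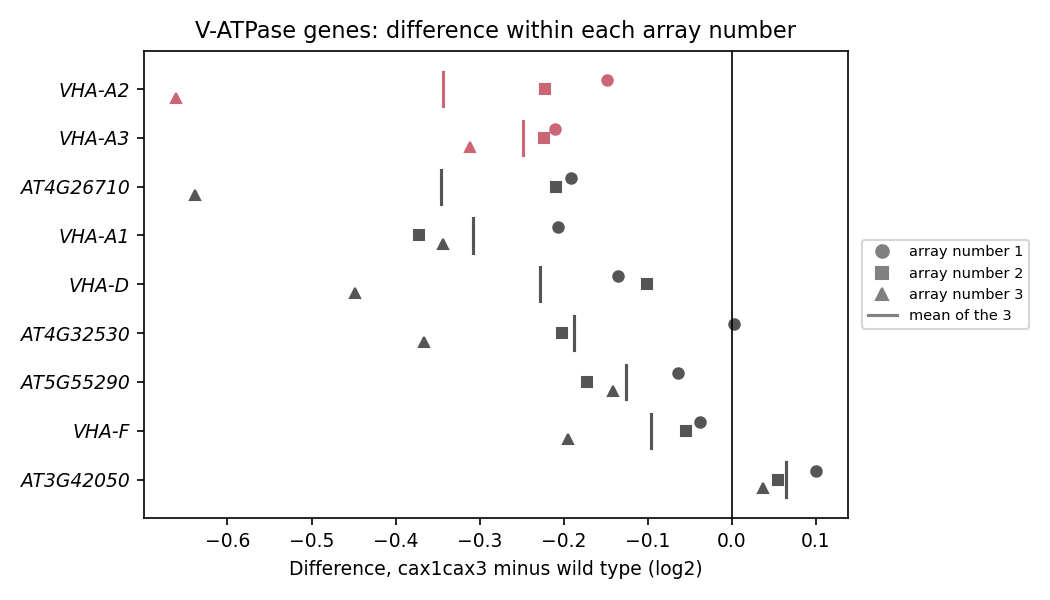
Difference in log2 level, cax1cax3 minus wild type (x axis), within each array number (symbols) and averaged over the 3 numbers (vertical ticks), for VHA-A2 and VHA-A3 (red) and the 7 other V-ATPase genes measured (grey). All lie between -0.66 and 0.10, and AT3G42050 is the one gene with a mean above 0.

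The calcium export list held 25 loci besides ACA12 and ACA13: the other autoinhibited pumps, the endoplasmic reticulum type pumps and the cation calcium exchangers. The annotation named 2 of them with a probe set of their own. Neither rose or fell by limma, beside 2.34% of all probe sets higher and 3.28% lower. At an unadjusted p under 0.05 there was 1, AT5G17850, beside 19.5% of all probe sets. AT5G17850, of the exchanger group, had log2 levels of 8.06, 7.95 and 7.75 in the wild type and of 8.35, 8.61 and 8.27 in the mutant. Its mutant arrays lay wholly above the wild type, as did those of 11.6% of all probe sets. The difference was 0.49 ± 0.13 (SE, limma adjusted p = 0.0928). With arrays weighted by limma's estimate of their quality the adjusted p of AT5G17850 was 0.0274, the lowest of a range up to 0.260 over the alternatives. NCL, a sodium/calcium exchanger, was level in both genotypes to within its spread (12.13 ± 0.04 and 12.08 ± 0.16, log2, SD, n = 3; adjusted p = 0.878). No result could be assigned to the other 8 autoinhibited pumps of the list or to the 4 endoplasmic reticulum type pumps. The same held for CAX1, CAX3 and the pyrophosphatases. None of these loci had a probe set annotated to it alone, and probe sets annotated to several genes were searched only for V-ATPase genes. Whether the rest of the pump family differed like ACA12 and ACA13 was therefore not analysed here.

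Genes of proton-coupled transporters, the CHX and TMT families, were added from the annotation. The CHX genes were not sorted by the membrane in which their proteins sit. Of 7 CHX cation/H+ exchanger genes, none rose or fell by limma, beside 2.34% of all probe sets higher and 3.28% lower. Only 1 of the 7, CHX16, had an unadjusted p under 0.05, beside 19.5% of all probe sets. CHX16 had log2 levels of 6.45, 6.66 and 6.22 in the wild type and of 7.34, 7.46 and 8.45 in the mutant, a difference of 1.31 ± 0.30 (SE, adjusted p = 0.0577). Its adjusted p was 0.0193 without both arrays numbered 3 and 0.0211 with array weights, and over all alternatives it ran from 0.0193 to 0.154. With the filter on low mean levels it was 0.0467. Mutant array 3 was the highest by about 1 log2 unit, and without it the difference was past the threshold (adjusted p = 0.0231). The other 6 CHX genes had differences between -0.05 and 0.19. TMT1, TMT2 and TMT3, which encode tonoplast monosaccharide transporters that load sugar into the vacuole against protons, had differences of -0.24, 0.02 and -0.08 and adjusted p values of 0.403 to 0.967.

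Organ markers and RNA quality were measured on the same arrays. The summed linear level of 5 anther and pollen markers was 428 to 689 on the wild-type arrays and 127 to 155 on the mutant arrays. On the wild-type arrays ATA27 and AT3G07820 made up most of that sum. Of the 5, 3 fell, beside 3.28% of all probe sets (ATA27, AT5G07230 and AT3G07820). ATA27 stayed called without any 1 array, AT5G07230 did not without wild-type array 2 or 3 or mutant array 1 or 2 (highest adjusted p 0.151), nor did AT3G07820 without array 2 of either genotype (highest 0.0557). With the array number as a block, SHT was called as well (adjusted p = 0.0412, against 0.0791 without the block). The same held with array weights (adjusted p = 0.0313). On the mutant arrays AMS and SHT were at or under the Bacillus percentile on all 3, AT3G07820 on 2 and ATA27 on 1. On the wild-type arrays AMS was at or under it on 2, and SHT was near it, with a mean log2 level of 4.97. The seed coat gene DELTA-VPE, the 1 seed marker of 5 that was measured, had linear levels of 199 to 1152 in the wild type and 25.8 to 47.9 in the mutant, where 1 array was under the Bacillus percentile. The 3 measured leaf markers summed to 22086 to 25917 in the wild type and 17986 to 20701 in the mutant. LHCB4.3 of them fell, a call lost without wild-type array 2 or mutant array 1 or 2 (adjusted p up to 0.107). With array weights the leaf marker PRK was called lower as well (adjusted p = 0.0409, against 0.0793 in the main fit). The 2 measured root markers, EXPA7 and EXPA18, were near background, at 60.8 to 64.5 and 61.6 to 71.6 in sum. Leaf markers were thus well above background on all arrays. ATA27, AT3G07820 and DELTA-VPE were above the Bacillus percentile on all wild-type arrays but not on all mutant arrays. AT5G07230 was above it on all arrays of both genotypes, AMS and SHT were near or under it, and the root share could not be checked. The log2 gap between the 3′ and 5′ actin probe sets, which widens as RNA degrades, was 2.73 to 3.18 in the wild type and 2.76 to 3.25 in the mutant. Within numbers 1, 2 and 3 the mutant gap was wider by 0.07, 0.29 and 0.03 for actin and by 0.06, 0.04 and 0.09 for ubiquitin. For GAPDH the mutant minus wild-type gap was -0.10, -0.04 and 0.04. What part organ shares or RNA quality have in the levels of ACA12, ACA13 and the VHA genes was not tested. In whole plants, fewer cells of a type and less RNA per cell cannot be told apart.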

How the data were processed

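Each array held the RNA of 1 sample. The authors deposited 1 value per probe set and array, on a log2 scale as judged from the values, with array medians of 7.03 to 7.08. Per the submitters' processing notes, GCOS 1.1.2 and RMA were used; their roles and settings are not given in the sources used here. No normalization was added. The 64 control probe sets were left out, which left 22746. Of these, 13513 were annotated with 1 gene, 503 with several and 8730 with none. Symbols were updated through the gene number to a RefSeq table of assembly TAIR10.1. No coordinates were used.

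All probe sets were fitted with limma 3.58.1 (lmFit and eBayes, R 4.3.3) over 6 arrays without covariates, with Benjamini-Hochberg adjustment over all of them and a threshold of 0.05. The fit was checked on simulated data. A gene with several probe sets was represented by the one with the highest mean. ACA12, ACA13, VHA-A2 and VHA-A3 received no test. Members and lists were chosen with earlier results of these data known, and the CHX and TMT lists were added from the annotation. Lists of plasma membrane proton pumps, proton pyrophosphatases, tonoplast channels and aquaporins, calmodulins and cyclic nucleotide-gated channels were also drawn up. Of their members, 0 had a probe set annotated to that gene alone. Named genes are the 4 members, called list members or otherwise the one with the largest change, short lists in full, and the 3 most alike genes of each member; further V-ATPase, CHX and TMT genes were named after their values were seen.

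Same-numbered arrays deviated together (correlations of 0.43, 0.29 and 0.47), against -0.41 to 0.12 for arrays of different numbers. The labels state no pairing, and with 3 arrays per genotype these correlations cannot establish one. The fit without the block stayed the main one, and the blocked value is given where it changed a call or count. As separate cultures are not stated, p-values reflect only differences among these samples, possibly technical ones, and the number of arrays limits the precision. Alternatives were quantile normalization, median centring, the replicate block, a variance trend, array weights, a filter on low values, all probe sets of a gene, and leaving out arrays.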

Additional observations from a re-analysis of the deposited data

How the results depend on the processing

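ACA12, ACA13, VHA-A2 and VHA-A3 kept the sign of their differences under every alternative run. Leaving out 1 array at a time gave 2.89 to 3.19 for ACA12, 2.54 to 3.00 for ACA13, -0.40 to -0.24 for VHA-A2 and -0.37 to -0.09 for VHA-A3. VHA-A2 moved most without both arrays numbered 3, to -0.19. The replicate block, which leaves differences as they are, raised the counts of all probe sets from 532 higher and 747 lower to 1053 and 1171, and changed no call among the V-ATPase and calcium export lists. Array weights gave 1286 and 1560, and 1 calcium export gene, AT5G17850, called higher. Without both arrays numbered 3 the higher count was 973. Without 1 array the counts ran from 108 to 797 higher and from 147 to 947 lower. The other counts of 0 in the V-ATPase and calcium export lists stayed at 0. In the CHX list CHX16 was called with array weights, without both arrays numbered 3, with the filter on low mean levels and without mutant array 3. The cause of these shifts was not tested.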

Other observations

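Vacuolar processing enzymes are proteases that mature vacuolar proteins, and some act in cell death through collapse of the vacuole. All 4 genes were measured. GAMMA-VPE, the main form of vegetative tissue, had log2 levels of 12.52, 12.72 and 12.19 in the wild type and of 12.51, 12.42 and 12.60 in the mutant, a difference of 0.03 ± 0.15 (SE, limma adjusted p = 0.951). By limma 1 of the 4 fell, beside 3.28% of all probe sets, and BETA-VPE besides had an unadjusted p under 0.05, as did 19.5% of all probe sets. BETA-VPE had levels of 5.73, 6.09 and 5.56 and of 6.04, 6.55 and 6.94, a difference of 0.72 ± 0.25 (SE, adjusted p = 0.173) that was widest in number 3, at 1.39. ALPHA-VPE differed by -0.08 (adjusted p = 0.815). DELTA-VPE, the seed coat form, fell by 4.12 log2 units (adjusted p = 0.0182), a call that ended when array 1 or 2 of either genotype was left out (highest adjusted p 0.0929). This list was added from the annotation.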
